A study of Mus musculus with 8 samples.

Results

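Nuclear receptor coactivators and corepressors were followed in the liver of mice on a high fat diet. They were the 9 genes *Lcor*, *Lcorl*, *Ncor1*, *Nrip1*, *Ncoa1*, *Ncoa2*, *Ncoa3*, *Ppargc1a* and *Ppargc1b*, out of 45706 Ensembl identifiers in the deposited counts. Each was chosen by name, as a known partner of nuclear receptors, and found through the symbol that the mouse gene annotation gives its identifier. *Lcor* was among the genes that the study marks as lower on these same livers, so its direction is not independent evidence.

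RNA-seq was performed on the livers of 8 male mice whose strain is labelled C56B6/J and named C57BL/6J in the study's methods. In 4 mice, called *Srsf10-kd*, an adeno-associated virus (AAV2/8) carried a short hairpin RNA in a mirE backbone against *Srsf10*, which encodes an SR protein of RNA processing. In the other 4 mice, called *Ctrl*, the same kind of virus carried a control hairpin. All mice were injected through the tail vein at 6 weeks of age, and 4 weeks later all began 12 weeks on a diet with 60% of its calories from fat. The hairpin and GFP were driven by the chicken β-actin promoter, which is active in many cell types, so *Ctrl* livers also carried virus, hairpin and GFP. Livers were labelled as separate samples, and no lean or uninjected liver was part of the comparison.

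Nuclear receptors are transcription factors that act on genes according to the ligand they bind, and in hepatocytes they set the pace of fatty acid oxidation, bile acid synthesis and gluconeogenesis. Corepressors bring histone deacetylases to a receptor and lower transcription of its targets, while coactivators bring acetyltransferases and the Mediator complex and raise it. PPARα, the receptor for fatty acids in the liver, is served by members of both classes.

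Each liver gave between 50456404 and 59697241 counted reads. The hairpin's target went against the label: *Srsf10* stood at 31.6, 33.7, 35.3 and 30.9 counts scaled to library depth (CPM) in *Ctrl* 1 to 4 and at 34.3, 34.0, 41.0 and 36.5 CPM in *Srsf10-kd* 1 to 4. Its log2 fold change was 0.15 ± 0.099 (SE, n = 4 livers per group, edgeR adjusted p = 0.378), so below *Srsf10-kd* names the label and not a loss of *Srsf10* RNA measured in these libraries. The study itself reports lower SRSF10 protein by western blot and lower *Srsf10* RNA by qPCR in livers given this hairpin. A pair of livers stood apart from their groups. *Srsf10-kd* 3 lay at 67.4 on the main axis of variation against 1.92 to 11.5 in the other *Srsf10-kd* livers. For each liver, the deviation of log2 CPM from each gene's mean over all livers was set against log2 exonic length. The slope was -0.0274 in *Ctrl* 3 and 0.0769 to 0.113 in the other *Ctrl* livers. Its sign is relative to the mean liver, so a negative slope does not mean that counts themselves fell with length. The slope was also negative in all 4 *Srsf10-kd* livers (-0.150 to -0.021), so it moved with the label and *Ctrl* 3 lay among the *Srsf10-kd* livers. Counts of calls are also given without *Ctrl* 3 and *Srsf10-kd* 3. Both livers were picked from these same data, so calls without them are not independent support. Leaving out a *Ctrl* liver that lay among the *Srsf10-kd* livers can widen the difference by itself. Of the marker lists for liver cell types, hepatocyte genes had a median log2 fold change of 0.13, cholangiocyte genes of 0.56, stellate cell and fibroblast genes of 0.20, macrophage and Kupffer cell genes of -0.04, endothelial genes of -0.01 and lymphocyte genes of 0.13. With 1 liver left out the cholangiocyte median stayed between 0.40 and 0.65, and those of stellate cell, macrophage, endothelial and lymphocyte genes ranged across 0.

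*Lcor* was lower in *Srsf10-kd* livers, and it was the only coregulator past the threshold. *Nrip1* was lower in every *Srsf10-kd* liver than in any *Ctrl* liver without passing that threshold, and the p160 coactivators *Ncoa1*, *Ncoa2* and *Ncoa3* and the corepressor relative *Lcorl* had log2 fold changes from -0.45 to -0.31 that did not pass either. *Ncor1*, *Ppargc1a* and *Ppargc1b* lay between -0.20 and 0.12. All 9 genes had enough counts to be tested, and 1 of 9 was called at an adjusted p under 0.05 in a two-sided quasi-likelihood test with edgeR. Among the 15491 genes tested, 11 were called, which is 0.071%, and all 11 were lower in *Srsf10-kd*. At an unadjusted p under 0.05, 4 of the 9 coregulators stood out, beside 21.8% of all genes. The log2 fold change was below 0 in 8 of 9 coregulators against 48.7% of all genes, and their median was -0.40 against 0.01. Both values are to be read beside transcript length. Of genes with at least 8 kb of exon 78.1% lay below 0, of those of 4 to 8 kb 63.0% and of those of 2 to 4 kb 37.5%. *Lcor*, *Ncoa3* and *Ppargc1a* fell in the 4 to 8 kb class and *Ppargc1b* in the 2 to 4 kb class, and the others had at least 8 kb. With each library's trend on length removed, 6 of 9 coregulators lay below 0 and the median was -0.16.

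**Figure D1:**
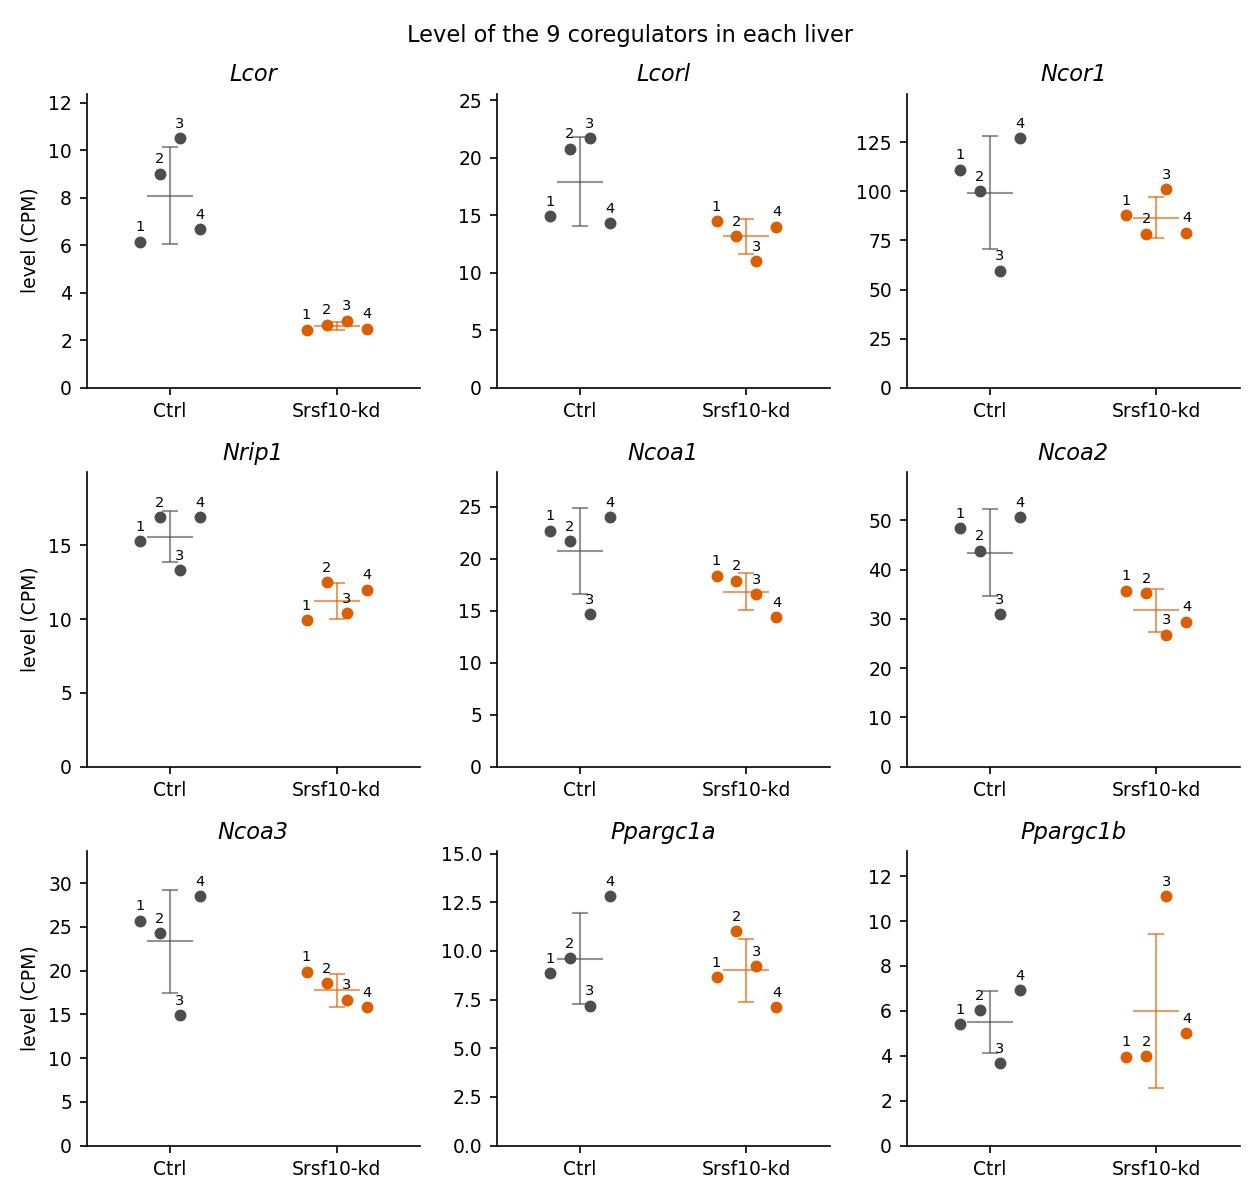
Level of each coregulator in CPM (linear axis from 0) in each liver, numbered by replicate, with the horizontal line at the mean and the bar at ± SD (n = 4 per group). The *Lcor* points of the *Srsf10-kd* livers sit between 2.44 and 2.82 CPM, all under the lowest *Ctrl* liver at 6.15 CPM, while for *Ppargc1b* the liver *Srsf10-kd* 3 sits alone at 11.1 CPM.

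*Lcor* encodes the ligand-dependent corepressor, which binds hormone-loaded receptors and brings CtBP proteins and histone deacetylases to them. It stood at 6.15, 9.01, 10.5 and 6.67 CPM in *Ctrl* 1 to 4 and at 2.44, 2.65, 2.82 and 2.48 CPM in *Srsf10-kd* 1 to 4. All *Srsf10-kd* livers were below all *Ctrl* livers, and the spread was narrow in *Srsf10-kd*, with a coefficient of variation of 6.74% against 25.3% in *Ctrl*. The mean of 8.09 ± 2.05 CPM (SD, n = 4) in *Ctrl* compared with 2.60 ± 0.175 CPM (SD, n = 4), a 3.11-fold lower level in *Srsf10-kd* by the fitted log2 fold change of -1.64 ± 0.19 (SE, edgeR adjusted p = 0.0195). The exact permutation test over the 70 assignments of 8 livers to groups of 4 gave a two-sided p = 0.0286, which is the smallest it can give. These values rest on 138 to 551 counts per liver. The call did not survive every reduction to 7 livers: leaving out *Ctrl* 2 raised the edgeR adjusted p to 0.12, and leaving out *Srsf10-kd* 1, 2 or 4 raised it to 0.082, 0.057 or 0.106. The log2 fold change stayed between -1.75 and -1.49 over all 8 reductions, and over 17 alternative analyses the adjusted p ranged from 1.08e-12 (DESeq2) to 0.12. In bulk tissue, fewer cells of a type that expresses *Lcor* and less *Lcor* RNA per cell cannot be told apart.

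In GRCm38, *Lcor* occupies bases 41482637 to 41562261 of chromosome 19 and is read from the forward strand. Its exons span 7.91 kb in all, its longest coding transcript has 8 exons, 3 of them coding, and its largest intron is 44420 bp long. No stretch of 75 bases in its transcripts was shared with an annotated transcript of another gene. Matches elsewhere in the genome were not searched. The 250 bases upstream of start sites were read from RefSeq (GRCm38.p6) for the 6 coregulators that had a window. Those of *Lcor*, the gene that fell, and *Nrip1*, the next to it by its test, are shown 5′ to 3′ on the strand of the gene. The *Lcor* window was cut to the 205 bases before its first GENCODE exon. No other window was cut, so *Lcor* counts come from a shorter stretch. Capitals mark each GC box, searched as GGGCGG on both strands, with overlapping matches in one run.
Lcor chr19:41482432-41482636 (+): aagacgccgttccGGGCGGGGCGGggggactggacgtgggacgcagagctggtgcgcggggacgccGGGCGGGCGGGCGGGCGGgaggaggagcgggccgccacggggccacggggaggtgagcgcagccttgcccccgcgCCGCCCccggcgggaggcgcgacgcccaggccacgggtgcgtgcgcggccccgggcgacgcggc
Nrip1 chr16:76373828-76374077 (-): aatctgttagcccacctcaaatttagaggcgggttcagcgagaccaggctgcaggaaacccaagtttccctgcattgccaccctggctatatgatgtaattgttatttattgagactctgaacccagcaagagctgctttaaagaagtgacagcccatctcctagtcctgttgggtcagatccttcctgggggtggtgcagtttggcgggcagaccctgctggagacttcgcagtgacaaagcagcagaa
The *Lcor* window held 36 CpG and 7 GC boxes in 205 bases, and the *Nrip1* window upstream of the outermost start held 4 CpG and no GC box. A window at a start site further in, chr16:76373050-76373299, held 32 CpG and 2 GC boxes, so the *Nrip1* gene had both kinds. A GC box was present in 32.7% of the 32851 windows of all genes, whose median was 6 CpG. The single *Ncoa1* window held 40 CpG and 7 GC boxes in 250 bases, although *Ncoa1* did not pass the test. None of the 9 coregulator windows held AGGTCA, the receptor half-site, or TATAAA, which were present in 14% and 12.4% of all windows. CACGTG, the E-box, was in 1 *Lcorl* window and in 6.02% of all windows. These are descriptions of letters in the window and not of binding.

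*Lcorl* encodes the closest relative of LCOR. It stood at 14.9, 20.8, 21.7 and 14.3 CPM in *Ctrl* 1 to 4 and at 14.5, 13.2, 11.0 and 14.0 CPM in *Srsf10-kd* 1 to 4. The groups overlapped narrowly, as *Ctrl* 4 lay under the highest *Srsf10-kd* liver and *Ctrl* 1 just above it. The log2 fold change was -0.44 ± 0.16 (SE, n = 4 per group, edgeR adjusted p = 0.176, exact permutation p = 0.0571), and without *Ctrl* 3 and *Srsf10-kd* 3 it was -0.26 ± 0.15 (SE, n = 3 per group, adjusted p = 0.276). The 3′ end of *Lcorl* overlaps *Ncapg* on the other strand over 944 exonic bases, and 4.19% of its 75-base stretches were shared with that gene, so part of its count is uncertain.

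Among *Ctrl* livers, *Lcor* and *Lcorl* varied together, with both highest in *Ctrl* 3 and *Ctrl* 2. The ratio of *Lcor* to *Lcorl*, looked at after these values were seen, was 0.413, 0.432, 0.486 and 0.466 in *Ctrl* 1 to 4 and 0.168, 0.201, 0.255 and 0.178 in *Srsf10-kd* 1 to 4. It was 0.449 ± 0.0326 (SD, n = 4) and 0.200 ± 0.039 (SD, n = 4), an exact permutation p = 0.0286. The ratio was picked after *Lcor* was seen to separate the groups, so this p adds no support beyond *Lcor* itself. Every *Srsf10-kd* liver thus held less *Lcor* relative to *Lcorl* than any *Ctrl* liver.

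**Figure D2:**
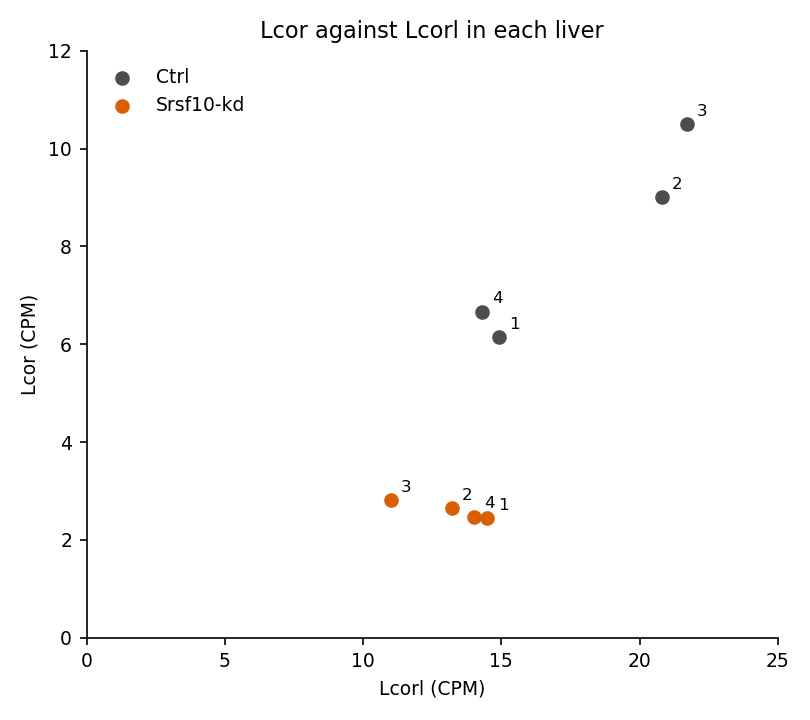
Level of *Lcor* against level of *Lcorl*, both in CPM on linear axes from 0, with 1 point per liver numbered by replicate. The 4 *Ctrl* points rise together from 6.15 to 10.5 CPM of *Lcor*, and the 4 *Srsf10-kd* points form a flat row at 2.44 to 2.82 CPM.

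*Nrip1* encodes RIP140, a corepressor of ligand-bound receptors with a role in lipid metabolism of fat and liver. It stood at 15.3, 16.9, 13.3 and 16.9 CPM in *Ctrl* 1 to 4 and at 9.94, 12.5, 10.4 and 12.0 CPM in *Srsf10-kd* 1 to 4. The groups did not overlap, and the lowest *Ctrl* liver was *Ctrl* 3. The means were 15.6 ± 1.69 and 11.2 ± 1.24 CPM (SD, n = 4 each), a log2 fold change of -0.48 ± 0.12 (SE) with an edgeR adjusted p = 0.119 and an exact permutation p = 0.0286. *Lcor* and *Nrip1* were the 2 coregulators whose *Srsf10-kd* livers all lay under the *Ctrl* livers, a pattern held by 7.53% of all genes, and none of the 9 had the opposite pattern, held by 6.73%. *Nrip1* was called beside *Lcor* by DESeq2 (adjusted p = 0.0201), where 2 of 9 coregulators and 5.75% of all genes passed. It was also called by limma-voom with sample quality weights (adjusted p = 0.0143; 3 of 9 coregulators with *Ncoa2*, and 11.7% of all genes). Its adjusted p ranged from 0.0143 to 0.322 over 17 alternatives. Its gene on chromosome 16, from 76287400 to 76373827 on the reverse strand, carries its whole coding sequence of 3483 bp in 1 exon. It shared no 75-base stretch with an annotated transcript of another gene.

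*Ncor1* encodes the large scaffold that holds histone deacetylase 3 at receptors without ligand. Its level was 111, 100, 59.5 and 127 CPM in *Ctrl* 1 to 4 and 87.9, 78.5, 101 and 79.0 CPM in *Srsf10-kd* 1 to 4. *Ctrl* 3 was far below the other *Ctrl* livers and below every *Srsf10-kd* liver. The log2 fold change was -0.20 ± 0.21 (SE, n = 4 per group, edgeR adjusted p = 0.562), and without *Ctrl* 3 and *Srsf10-kd* 3 it was -0.46 ± 0.10 (SE, n = 3 per group, edgeR adjusted p = 0.0378, the lowest in a range up to 0.892 over 17 alternatives).

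The p160 coactivators bind receptors through short leucine-rich motifs and recruit the acetyltransferases CBP and p300. *Ncoa2*, the p160 gene with the largest difference, encodes TIF2, and stood at 48.4, 43.8, 31.0 and 50.6 CPM in *Ctrl* 1 to 4 and at 35.7, 35.2, 26.8 and 29.4 CPM in *Srsf10-kd* 1 to 4. *Ncoa3*, which encodes SRC-3, stood at 25.7, 24.3, 14.9 and 28.5 CPM and at 19.9, 18.6, 16.7 and 15.8 CPM. *Ncoa1*, which encodes SRC-1, stood at 22.7, 21.7, 14.7 and 24.0 CPM and at 18.4, 17.9, 16.6 and 14.4 CPM. In all these genes *Ctrl* 1, 2 and 4 lay above every *Srsf10-kd* liver, and *Ctrl* 3 lay among or below the *Srsf10-kd* livers. The log2 fold changes were -0.45 ± 0.16 for *Ncoa2*, -0.40 ± 0.18 for *Ncoa3* and -0.31 ± 0.16 for *Ncoa1* (SE, n = 4 per group), with edgeR adjusted p of 0.175, 0.239 and 0.27. The exact permutation p were 0.0857, 0.171 and 0.143, so none of the p160 genes passed with 8 livers. Without *Ctrl* 3 the adjusted p were 0.0477 for *Ncoa2*, 0.0396 for *Ncoa3* and 0.0645 for *Ncoa1*, in ranges of 0.0243 to 0.46, 0.0249 to 0.468 and 0.0427 to 0.658 over 17 alternatives. *Lcor*, *Nrip1*, *Ncoa2* and *Ncoa3* were then the 4 of 9 coregulators called, beside 3.47% of all genes. The ratio of *Ncoa2* to *Ncoa1*, also looked at after the values were seen, was steady at 2.01 to 2.13 in *Ctrl* and 1.62 to 2.04 in *Srsf10-kd* (exact permutation p = 0.0571).

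*Ppargc1a* encodes PGC-1α, which is induced by fasting and drives gluconeogenic and mitochondrial genes. It stood at 8.84, 9.62, 7.18 and 12.8 CPM in *Ctrl* 1 to 4 and at 8.65, 11.0, 9.22 and 7.11 CPM in *Srsf10-kd* 1 to 4, with full overlap of the groups and a log2 fold change of -0.10 ± 0.19 (SE, edgeR adjusted p = 0.773). *Ppargc1b* encodes PGC-1β, a coactivator linked to lipogenesis and mitochondria. It stood at 5.42, 6.02, 3.68 and 6.92 CPM in *Ctrl* 1 to 4 and at 3.96, 3.98, 11.1 and 5.01 CPM in *Srsf10-kd* 1 to 4. The level in *Srsf10-kd* 3 was above that of every other liver, and the log2 fold change turned from 0.12 ± 0.34 (SE, edgeR adjusted p = 0.843) to -0.35 ± 0.21 without that liver (adjusted p = 0.43). The ratio of *Ppargc1b* to *Ppargc1a*, chosen after the values were seen, was 0.512 to 0.626 in *Ctrl* and 0.458, 0.363, 1.20 and 0.704 in *Srsf10-kd* 1 to 4, all outside the *Ctrl* range, with *Srsf10-kd* 1 and 2 below it and 3 and 4 above it.

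Without *Ctrl* 3 and *Srsf10-kd* 3, 6 of the 9 coregulators were called, namely *Lcor*, *Ncor1*, *Nrip1*, *Ncoa1*, *Ncoa2* and *Ncoa3*, all lower in *Srsf10-kd*, beside 8.62% of all genes. The median of the 9 was then -0.50, and *Lcor* was at -1.53 ± 0.17 (SE, n = 3 per group, edgeR adjusted p = 0.00819). *Ctrl* 3 was the lowest *Ctrl* liver for 7 of the 9 genes and the highest for the other 2, *Lcor* and *Lcorl*. The difference in *Lcor* was therefore smaller without *Ctrl* 3 (-1.49 ± 0.16, SE), whereas that in *Ncoa2* was larger (-0.58 ± 0.13, SE). Calls added by leaving out *Ctrl* 3 are thus no independent support for a lower level.

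The coregulators were long genes, and transcript length moved with the difference between groups. Their median exonic length was 8.58 kb against 3.94 kb over all genes tested, and 87.4% of tested genes were shorter than that median. Genes under 2 kb had a median log2 fold change of 0.31 (n = 3220), genes of 2 to 4 kb of 0.08 (n = 4594), genes of 4 to 8 kb of -0.09 (n = 5255) and genes of at least 8 kb of -0.23 (n = 2360). Of the longest class, 78.1% lay below 0 and 17.0% had *Srsf10-kd* livers all under the *Ctrl* livers. Each library's trend on exonic length, taken relative to the mean over livers, was then removed. *Lcor* was past the threshold at -1.48 ± 0.21 (SE, edgeR adjusted p = 0.0492), as 1 of 9 coregulators and among 0.071% of all genes. *Nrip1* was then at -0.24 ± 0.10 (SE, adjusted p = 0.277), *Ncoa2* at -0.16, *Ncoa3* at -0.22, *Ncoa1* at -0.12 and *Lcorl* at -0.17, while *Ncor1* and *Ppargc1a* turned to 0.09 and 0.04. The part of transcript length in these differences beyond this correction was not tested.

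**Figure D3:**
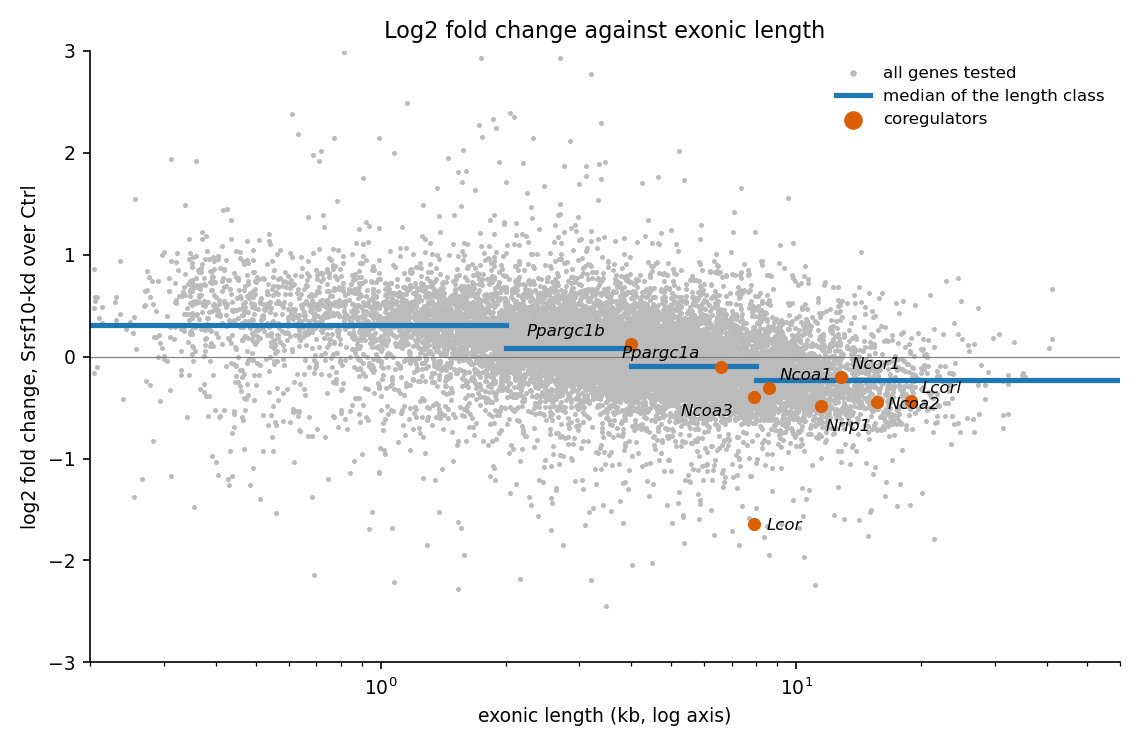
Log2 fold change of *Srsf10-kd* over *Ctrl* against exonic length in kb (log axis) for the tested genes with a length (grey points), with the median of each length class as a blue line and the 9 coregulators in orange. The class medians step down from 0.31 under 2 kb to -0.23 from 8 kb on, and *Lcor* at -1.64 lies far under its class, while 121 of 15429 genes lie outside the axes.

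**Figure D4:**
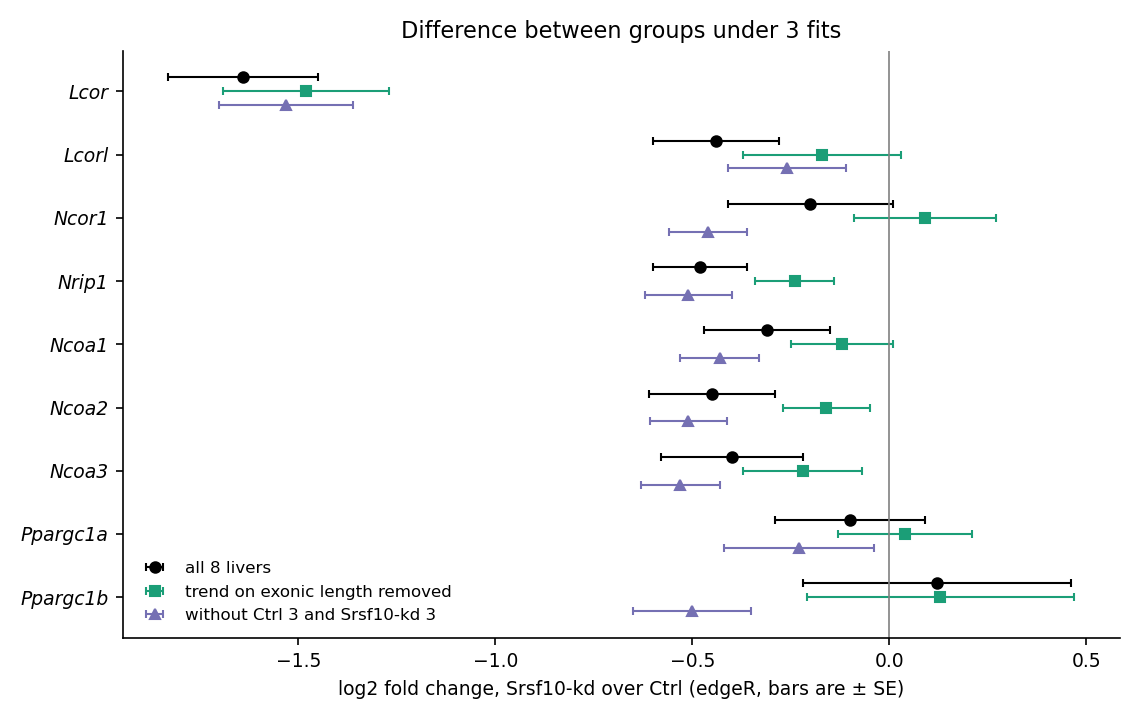
Log2 fold change of each coregulator (*Srsf10-kd* over *Ctrl*, bars are ± SE) with all 8 livers, with the trend on exonic length removed, and without *Ctrl* 3 and *Srsf10-kd* 3. *Lcor* stays between -1.64 and -1.48 in the 3 fits, whereas *Ncor1* moves from -0.46 to 0.09.

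Levels per kb of exon allowed the coregulators to be ordered within *Ctrl* livers. *Ncor1*, the scaffold, had the highest level, 7.75 ± 2.24 CPM per kb (SD, n = 4). The p160 genes came next, with *Ncoa3* at 2.96 ± 0.748, *Ncoa2* at 2.78 ± 0.562 and *Ncoa1* at 2.42 ± 0.483 CPM per kb. *Ppargc1a* was at 1.46 ± 0.356, *Ppargc1b* at 1.38 ± 0.342 and *Nrip1* at 1.36 ± 0.148 CPM per kb, and *Lcor* and *Lcorl* closed the order at 1.02 ± 0.259 and 0.951 ± 0.205 CPM per kb. Only *Ncor1* and *Ncoa3* were neighbours whose ranges over livers did not overlap. In *Srsf10-kd* livers *Lcor* was the lowest of the 9 by this level, at 0.328 ± 0.0221 CPM per kb (SD, n = 4).

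The partners of the coregulators were described with 8 lists of 94 genes, of which 92 were tested. In all, 66 of these lay below 0 (71.7% against 48.7% of all genes, 63.0% of genes of 4 to 8 kb and 78.1% of longer genes). One gene was called, the receptor gene *Ppara*, beside 0.071% of all genes. The study reports *Ppara* as lower on these same livers, so its direction is not independent evidence. Of the 92, 8 were lower without overlap of the groups and 1 was higher, beside 7.53% and 6.73% of all genes. Without *Ctrl* 3 and *Srsf10-kd* 3, where 8.62% of all genes were called, 1 of 5 NCoR and SMRT genes, 1 of 10 other corepressors, 2 of 7 p160 partners, 4 of 8 genes of the NCOA list, 2 of 13 Mediator genes, 1 of 8 PGC-1 partners, 0 of 15 PGC-1 targets and 4 of 26 receptors were called. With the trend on length removed, the medians of the 8 lists lay between -0.11 and 0.06. In the NCoR and SMRT complex, which works with NCOR1, 3 of 5 genes lay below 0 (median -0.14) and none was called. *Tbl1x*, whose product helps to exchange corepressors for coactivators, had groups without overlap, at 44.0 to 47.0 CPM in *Ctrl* and 27.6 to 40.5 CPM in *Srsf10-kd* (-0.45 ± 0.12, SE, edgeR adjusted p = 0.13), and *Hdac3*, the deacetylase of the complex, was at 0.23 (adjusted p = 0.268). Of the other corepressors and their partners, among them the CtBP proteins that LCOR recruits, 5 of 10 lay below 0 (median -0.06), with *Bcor*, a corepressor of BCL6, at -0.61 (adjusted p = 0.224) and the scaffold *Sin3a* at -0.35 (adjusted p = 0.249). None of these other corepressor genes passed the threshold with 8 livers, and *Sin3a* passed without *Ctrl* 3 and *Srsf10-kd* 3 (adjusted p = 0.0479). It was at -0.26 with the trend on length removed (adjusted p = 0.393).

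Among the p160 partners, 5 of 7 tested genes of 8 lay below 0 (median -0.09). *Ep300*, the acetyltransferase p300, was at -0.49 (edgeR adjusted p = 0.262) and *Carm1*, an arginine methyltransferase that p160 proteins recruit, at -0.32 (adjusted p = 0.337). Without *Ctrl* 3 and *Srsf10-kd* 3 both passed the threshold (adjusted p = 0.0265 and 0.0357). With the trend on length removed they were at -0.20 and -0.26 (adjusted p = 0.606 and 0.463). Of the other NCOA proteins and the NCOA6 complex, 7 of 8 lay below 0 (median -0.31, or -0.07 with the trend on length removed). Both *Ncoa4* and the histone demethylase gene *Kdm6a* were lower without overlap, a pattern held by 7.53% of all genes and 17.0% of those with at least 8 kb of exon. *Ncoa4*, whose product also carries ferritin to the lysosome, was at 66.4 to 80.6 CPM in *Ctrl* and at 50.2, 50.4, 21.8 and 48.4 CPM in *Srsf10-kd* 1 to 4 (-0.74 ± 0.24, SE, adjusted p = 0.15). Without *Ctrl* 3 and *Srsf10-kd* 3 *Ncoa4* was at -0.56 (adjusted p = 0.0132), and with the trend on length removed at -0.56 (adjusted p = 0.224). *Kdm6a* was at -0.33 (adjusted p = 0.173).

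In the Mediator complex, which links coactivators to RNA polymerase II, 12 of 13 genes lay below 0 (median -0.27) and none passed the test. *Med12*, a subunit of its kinase module, was at 14.0, 14.9, 6.48 and 19.5 CPM in *Ctrl* 1 to 4 and at 6.05, 7.11, 0.778 and 4.38 CPM in *Srsf10-kd* 1 to 4. The overlap came from *Ctrl* 3 alone, and the log2 fold change was -1.58 ± 0.54 (SE, edgeR adjusted p = 0.161). Without *Ctrl* 3 and *Srsf10-kd* 3 it was -1.46 ± 0.19 (SE, n = 3 per group, adjusted p = 0.00931, the lowest in a range up to 0.338 over 17 alternatives). *Med1*, the subunit that binds receptors directly, was at -0.33 (adjusted p = 0.166), and at -0.45 without *Ctrl* 3 and *Srsf10-kd* 3 (adjusted p = 0.0197). With the trend on length removed *Med1* was at -0.14 (adjusted p = 0.515) and the Mediator median was -0.08.

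For the PGC-1 proteins, 6 of 8 tested partners of 9 lay below 0 (median -0.08, or 0.06 with the trend on length removed). *Gabpa*, a transcription factor of mitochondrial genes, had groups without overlap (-0.32, edgeR adjusted p = 0.181). *Hcfc1* was at -0.50 (adjusted p = 0.323), at -0.59 without *Ctrl* 3 and *Srsf10-kd* 3 (adjusted p = 0.0223) and at -0.31 with the trend on length removed (adjusted p = 0.531). Of their target genes, 10 of 15 lay below 0 (median -0.13), among them *Cpt1a*, the entry step of mitochondrial fatty acid oxidation, at -0.66 (edgeR adjusted p = 0.237). None of the partners or targets was called with 8 livers.

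The receptors themselves showed 18 of 26 genes below 0 (median -0.17). *Ppara* was at 177, 208, 168 and 234 CPM in *Ctrl* 1 to 4 and at 88.4, 84.6, 77.8 and 82.3 CPM in *Srsf10-kd* 1 to 4, with no overlap and a log2 fold change of -1.24 ± 0.13 (SE, edgeR adjusted p = 0.0166). Its adjusted p rose to 0.106 without *Ctrl* 2 and to 0.0823, 0.0536 and 0.0969 without *Srsf10-kd* 1, 2 and 4. *Thrb*, the thyroid hormone receptor β, also had groups without overlap (-0.44, adjusted p = 0.13, or 0.0183 without *Ctrl* 3 and *Srsf10-kd* 3). *Thrb* was at -0.28 with the trend on length removed (adjusted p = 0.353). In all, 3 of 26 receptors were lower without overlap, beside 7.53% of all genes, and 1 was higher, beside 6.73%. The higher one was *Nr2f2*, which encodes COUP-TFII and is named here after its values were seen, at no more than 31.9 CPM in *Ctrl* and at 32.7 to 41.1 CPM in *Srsf10-kd* (0.29, edgeR adjusted p = 0.18).

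**Figure D5:**
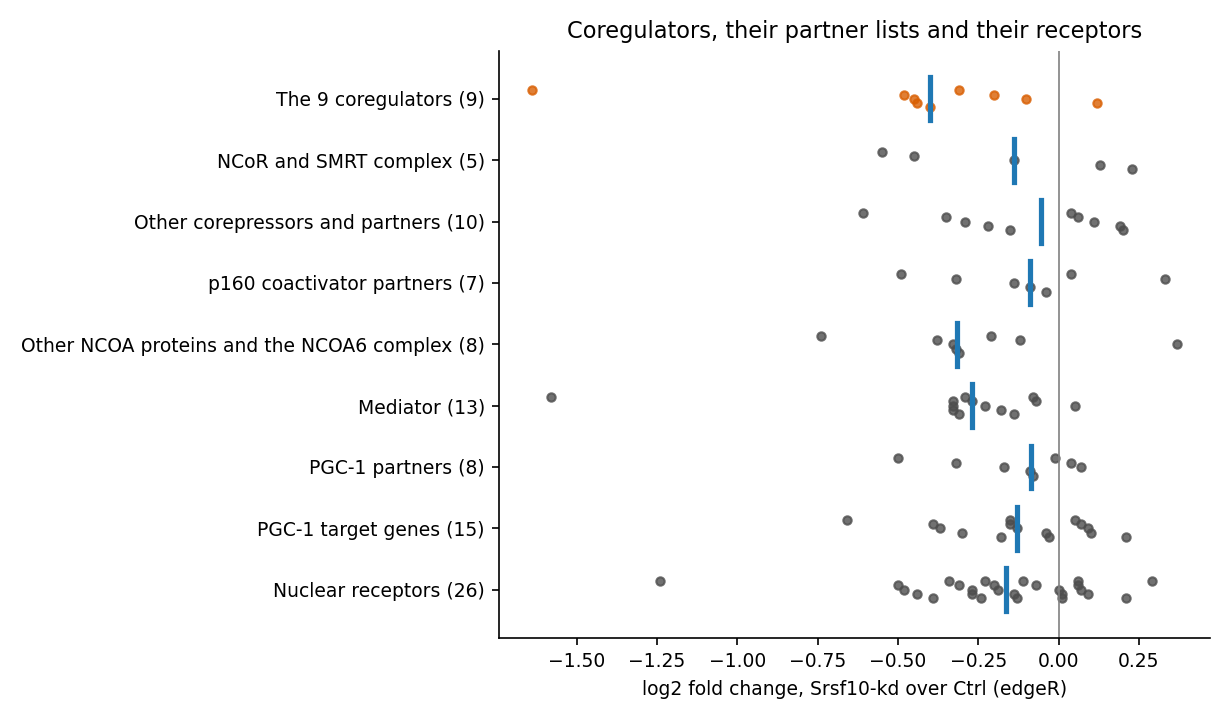
Log2 fold change of *Srsf10-kd* over *Ctrl* for each tested gene (points) of the 9 coregulators and of 8 partner lists, with the number tested in brackets and the blue bar at the median. The lowest points are *Lcor* at -1.64, *Med12* at -1.58 and *Ppara* at -1.24, and the medians lie between -0.40 and -0.06.

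The genes whose profile over the 8 livers was most like that of *Lcor* were *Gprin3*, *Zfp971*, *Lman1*, *Katnal1* and *Sike1*, by a root mean square difference of z-scored log2 CPM of 0.178 to 0.224 among 10967 genes. *Gprin3* was closest, at 4.97, 7.23, 8.71 and 5.18 CPM in *Ctrl* 1 to 4 and at 1.92, 1.86, 1.61 and 2.23 CPM in *Srsf10-kd* 1 to 4. As in *Lcor*, *Ctrl* 3 and *Ctrl* 2 were the highest livers. Its log2 fold change was -1.77 ± 0.21 (SE, edgeR adjusted p = 0.0223, up to 0.126 without *Ctrl* 2), while the other 4 genes lay between -0.63 and -0.34 and did not pass the test. All of these genes were picked by their likeness to *Lcor* over the same 8 livers. Their lower level and their order of livers follow from that choice and are not independent results.

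Some markers of other liver cells had groups that did not overlap, and no marker was called at an edgeR adjusted p under 0.05. The summed level of the 5 cholangiocyte markers was 31.4 to 39.1 CPM in *Ctrl* and 46.5 to 68.6 CPM in *Srsf10-kd*, without overlap. All 5 had log2 fold changes above 0, none of them called. Their median exonic length was 2.19 kb. Of genes of 2 to 4 kb 37.5% lay below 0, and of all genes 48.7%. *Krt19*, a keratin of bile duct cells, was at 5.17 to 8.79 CPM in *Ctrl* and at 9.49 to 11.6 CPM in *Srsf10-kd*. *Spp1* of the same list was also higher without overlap, at 17.8 to 26.6 and 27.1 to 44.7 CPM. This pattern was held by 6.73% of all genes, and the edgeR adjusted p of *Krt19* and *Spp1* were 0.116 and 0.151. Of 8 endothelial markers, 4 lay below 0 and only *Lyve1*, which was higher, had groups without overlap (6.73% of all genes were higher in this way). It was at 13.6 to 21.9 CPM in *Ctrl* and at 22.8 to 34.2 CPM in *Srsf10-kd* (0.57, edgeR adjusted p = 0.139). The 4 adipocyte markers tested of 5 had a median of 1.21, which was 0.18 without *Srsf10-kd* 4, with summed levels of 14.4 to 26.1 and 22.6 to 65.0 CPM, and 2 markers of that list were at 0 in at least 1 liver. Hepatocyte markers summed to between 82400 and 109000 CPM in *Ctrl* and between 100000 and 116000 CPM in *Srsf10-kd*, so the defining markers of the labelled tissue were present in every liver. Of the 9 hepatocyte markers tested, 3 had log2 fold changes below 0. *Apob*, the structural protein of VLDL, was lower in every *Srsf10-kd* liver (2660 to 5230 CPM) than in any *Ctrl* liver (7250 to 9350 CPM). That pattern was held by 7.53% of all genes. The log2 fold change of *Apob* was -0.93 ± 0.22 (SE, edgeR adjusted p = 0.115), so it was not called. The part of cell composition in the levels of the coregulators was not tested.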

How the data were processed

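RNA-seq of 8 livers (4 *Srsf10-kd*, 4 *Ctrl*, grouped by the sample labels) was used. The authors enriched poly(A) RNA, aligned the reads to GRCm38 with STAR 2.7.7a (per the submitters' processing notes) and deposited raw gene counts without normalization. The annotation release and the strand setting are not given in the sources used here. Reads of overlapping genes can therefore be mixed. Depth was 50456404 to 59697241 counts per liver. No pair of libraries was a duplicate (lowest chi-square per degree of freedom 46.5).

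Symbols and exonic lengths came from GENCODE M21, which matched 45143 of 45706 identifiers. Counts were analysed in R 4.3.3 with edgeR 4.0.16 (TMM, filterByExpr, quasi-likelihood test on condition, two-sided, Benjamini-Hochberg adjusted p under 0.05 over 15491 genes). The SE of a log2 fold change was derived from its F statistic. CPM follow TMM normalization. An exact permutation test over 70 assignments was run per gene on log2 CPM (prior count 2). P-values measure the spread between these livers. Alternatives were DESeq2 1.42.0 (the study's tool), limma-voom (limma 3.58.1), other scalings and filters, a replicate block, removal of each library's lowess trend (span 0.5) on exonic length, and livers left out. The code was tested on simulated counts.

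Genes named were the 9 coregulators, *Srsf10*, *Ppara*, for each partner list the called genes or, with fewer than 2 called, those with the smallest p until 2 were named, and the 5 profiles most like *Lcor* with a mean log2 CPM of at least 1. Members and lists were chosen with earlier results of these data known. List genes without a matching identifier or with low counts were not tested. One gene that the rule would name is not reported here.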

Additional observations from a re-analysis of the deposited data

Results flagged for a closer look

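Within each group of 4 livers, the highest or lowest level stood far from the rest in 4 of 64 groups examined, where chance flags about 1 in 20 groups. *Ppargc1b* was at 11.1 CPM in *Srsf10-kd* 3 against 3.96 to 5.01 CPM in the other *Srsf10-kd* livers. In the same liver *Carm1* was at 13.2 CPM against 18.2 to 18.4 CPM, and *Ncoa4* was at 21.8 CPM against 48.4 to 50.4 CPM. *Zfp971*, one of the genes closest to *Lcor* in profile, was at 1.87 CPM in *Srsf10-kd* 1 against 2.17 to 2.19 CPM.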

How the results depend on the processing

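The number of genes past the threshold was 11 with edgeR and moved to 890 with DESeq2, 1814 with limma-voom, 46 without a filter on low counts, 59 with the replicate number as a block and 1342 without *Ctrl* 3 and *Srsf10-kd* 3. It ranged from 0 to 544 with 1 liver left out, the highest without *Ctrl* 3. edgeR called 0 genes without *Ctrl* 2 (2154 at an unadjusted p under 0.05) and 0 without *Srsf10-kd* 1, 2 or 4 (3450, 3656 and 2768). The number of coregulators called moved from 1 to 2 with DESeq2, 3 with limma-voom and 6 without *Ctrl* 3 and *Srsf10-kd* 3, and ranged from 0 to 4 with 1 liver left out. Their median log2 fold change of -0.40 moved to -0.16 with the length trend removed and otherwise stayed between -0.50 and -0.29. *Ppargc1b* turned to -0.33 with limma-voom, -0.01 with the replicate block and -0.50 without *Ctrl* 3 and *Srsf10-kd* 3, and ranged from -0.35 to 0.28 with 1 liver left out. With the length trend removed *Ncor1* turned to 0.09 and *Ppargc1a* to 0.04, and the latter ranged from -0.21 to 0.07 with 1 liver left out. The cause of these moves was not tested. Livers with the same number were not shown to be paired, as the correlations of their deviations were -0.176, 0.213, 0.265 and 0.217 for numbers 1 to 4. With 4 livers per group, differences near the size of that in *Ncoa2* lay close to the spread between livers.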

Other observations

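*Gm340*, the annotated gene that follows *Lcor* on the same strand, was looked up after the values of *Lcor* were seen. It stood at 3.26, 3.83, 2.35 and 3.67 CPM in *Ctrl* 1 to 4 and at 2.23, 1.69, 1.46 and 2.30 CPM in *Srsf10-kd* 1 to 4. The groups did not overlap, and the log2 fold change was -0.77 ± 0.21 (SE, n = 4 per group, edgeR adjusted p = 0.126, exact permutation p = 0.0286). Its *Ctrl* livers did not share the order of *Lcor*, since *Ctrl* 3 was the lowest for *Gm340* and the highest for *Lcor*.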
